A study of Homo sapiens with 8 samples.

Results

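Respiratory complex I, NADH:ubiquinone oxidoreductase, was examined in outer and inner cells of mammary acini through the 38 probes whose gene symbol names a nuclear-encoded NDUFA, NDUFB, NDUFC, NDUFS, NDUFV or NDUFAB subunit. The probes were taken by symbol, whatever their values, and each stood for 1 gene, so that 38 of the 18127 genes on the array were members. Assembly factors of the NDUFAF series were left out, and the mitochondrially encoded ND subunits do not carry such symbols. Of the 38 probes, 34 gave a signal above background on at least 4 of the 8 arrays and were tested. None of the 34 passed the test between outer and inner cells, and the 6 tested catalytic subunits differed by −0.28 to 0.08 on the log2 scale.

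Complex I is the entry point for electrons from NADH into the respiratory chain of mitochondria, and it couples their transfer to ubiquinone with the pumping of protons across the inner membrane. It has an arm in the matrix, which carries a flavin and a chain of iron-sulfur clusters, and an arm in the membrane, which holds the proton channels. The conserved core subunits do the catalysis. The accessory subunits surround the core and are needed for its assembly or stability, and many of them are small proteins of the membrane arm.

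MCF10A-5E is a single clone of MCF10A, an immortalised and non-tumorigenic human breast epithelial line that forms hollowing spheres, called acini, on reconstituted basement membrane. All samples came from acini at day 6, grown on Matrigel in medium with horse serum, hydrocortisone, cholera toxin, insulin, antibiotics, EGF and Matrigel. About 50 cells per sample were laser-microdissected, either outer cells attached to the matrix (4 arrays) or inner cells without that contact (4 arrays), and poly(A) PCR product was hybridised to HumanRef-8 v2.0 BeadChips of 20589 probes. No source ties the samples to separate cultures, and the series speaks of RNA amplified in quadruplicate, so each p-value reflects the spread among these samples alone, and that spread may be technical. In pooled cells, fewer cells with a transcript and less of it per cell cannot be told apart.

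The arrays detected 6429 to 7000 probes each at a detection p below 0.01, with mean intensities of 344.4 to 533.0. Arrays of one group correlated at 0.76 to 0.78 over the tested probes and arrays of different groups at 0.75 to 0.77, a description over probes. Of 11 epithelial markers, 9 were detected on all arrays, while CDH1, which encodes E-cadherin, and KRT6A were detected on none. The summed level of the epithelial list was 18612 to 20693 on the inner arrays and 21921 to 23432 on the outer arrays, without overlap. Of 9 fibroblast markers, PDGFRA, PDGFRB, LUM and POSTN were detected on no array and DCN, FAP and COL1A2 on at least 4. DCN, which encodes decorin, read 10.40 to 12.07 over the 8 arrays, FAP 4.46 to 10.57 and COL1A2 4.50 to 5.94 in log2 intensity, and the summed level of the list was 1938 to 5087 on inner and 2510 to 5741 on outer arrays. Of 7 endothelial markers, all but ENG were detected on no array (sums of 210 to 254 and 206 to 237), and of 8 leukocyte markers 4 were detected on none (409 to 587 and 280 to 440). The part of these lists in the complex I values was not tested.

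All values below are log2 intensities after background correction and quantile normalisation, and each difference is outer minus inner, so that 1 unit is a 2-fold difference. Differences were tested with limma over all 6698 tested probes, with Benjamini-Hochberg adjustment and a threshold of 0.05. At that threshold 0 of the 34 complex I probes were called, where 0.0597% of all tested probes were (0.0149% higher and 0.0448% lower in outer cells). At an unadjusted limma p below 0.05 stood 1 higher probe, NDUFA8, and 1 lower probe, NDUFB6, which is 5.88% of the members against 8.05% of all tested probes (4.06% higher and 3.99% lower). With neqc on all probes as the background correction, 6 of the 34 members had such a p. That is a larger share than the 8.06% of all tested probes, and again 0 were called.

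The signs of the differences were uneven. In outer cells 9 members were higher and 25 lower, so that 73.5% were lower against 49.4% of all tested probes. The median difference was −0.15 for the members and 0.01 for all tested probes. All members but NDUFA8 and NDUFB6 had a 95% interval that included 0, and the members were measured on the same 8 arrays, so the count is a description. NDUFA4, which carries a complex I name but is now known as a subunit of complex IV, differed by −0.03, and without it 9 members were higher and 24 lower.

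**Figure D1:**
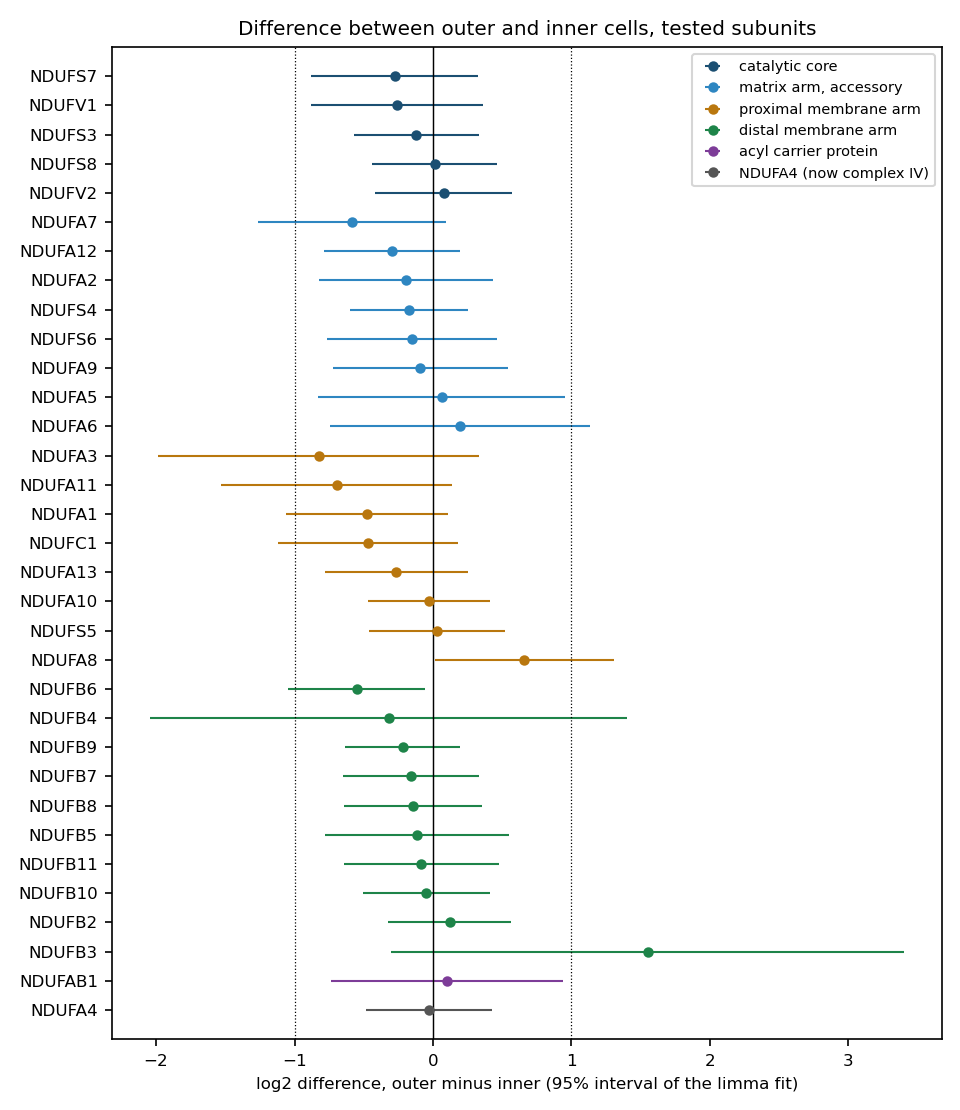
Log2 difference between outer and inner cells (horizontal axis) for 33 of the 34 tested subunits (vertical axis), ordered by role, with the 95% interval of the limma fit. Points to the left of the solid line were lower in outer cells, dotted lines mark a 2-fold difference, and 24 of the 33 points lie to the left.

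The promoter sequence that precedes a member is shown for NDUFB3 and NDUFA8, which had the largest differences toward outer cells, and for NDUFS6 and NDUFS7, 2 of the 3 that hold a motif of NRF1, a factor known for driving nuclear genes of the respiratory chain. Each run is the 250 bases before the gene's start, 5′ to 3′ on the gene's strand, from RefSeq on GRCh38.p14. Capitals mark matches on either strand to CGCATGCG (NRF1), CCGGAAG (ETS factors), AANATGGCG (YY1) and GGGCGG (SP1). The windows are chr2:201071751-201072000 on the plus strand for NDUFB3, chr9:122159780-122160029 on the minus strand for NDUFA8, chr5:1801157-1801406 on the plus strand for NDUFS6 and chr19:1383657-1383906 on the plus strand for NDUFS7.
NDUFB3: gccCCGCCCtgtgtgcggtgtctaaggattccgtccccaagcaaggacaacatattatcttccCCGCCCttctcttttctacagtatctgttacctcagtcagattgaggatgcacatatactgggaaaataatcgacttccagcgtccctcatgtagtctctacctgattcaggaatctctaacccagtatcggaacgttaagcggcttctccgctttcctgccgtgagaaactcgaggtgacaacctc
NDUFA8: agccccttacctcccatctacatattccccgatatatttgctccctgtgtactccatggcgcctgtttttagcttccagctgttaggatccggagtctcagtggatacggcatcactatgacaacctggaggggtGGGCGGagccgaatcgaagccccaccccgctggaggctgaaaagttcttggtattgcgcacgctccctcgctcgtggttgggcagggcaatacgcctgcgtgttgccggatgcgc
NDUFS6: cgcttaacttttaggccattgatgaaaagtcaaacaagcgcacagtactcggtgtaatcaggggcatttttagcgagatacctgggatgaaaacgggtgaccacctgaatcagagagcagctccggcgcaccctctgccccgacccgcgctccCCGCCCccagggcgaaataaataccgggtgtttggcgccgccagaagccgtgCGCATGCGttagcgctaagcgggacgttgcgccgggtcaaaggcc
NDUFS7: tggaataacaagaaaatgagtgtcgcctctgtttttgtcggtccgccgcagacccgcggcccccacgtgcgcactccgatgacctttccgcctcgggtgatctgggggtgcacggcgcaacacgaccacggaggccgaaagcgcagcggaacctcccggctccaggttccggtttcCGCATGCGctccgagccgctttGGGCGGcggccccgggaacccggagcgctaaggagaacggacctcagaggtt

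The NRF1 motif begins 45 bases before the start of NDUFS6 and 74 before that of NDUFS7. Such a window was available for 32 of the 38 members. The NRF1 motif was found in 3 of the 32 (NDUFB4, NDUFS6 and NDUFS7), which is 9.38%, against 1.87% of 27305 promoters of the same length. Those 27305 promoters, each from a different gene, were not matched to the members for kind of gene, expression or base composition. The ETS motif stood in 5 of 32 (NDUFA1, NDUFA13, NDUFB7, NDUFS1 and NDUFS3), or 15.6% against 8.79%, and the YY1 motif in NDUFS8 alone, or 3.12% against 1.39%. The SP1 motif was found in 20 of 32 (62.5% against 42.2%) and CCAAT, on either strand, in 8 of 32 (25.0% against 33.1%). NDUFS6 differed by −0.15, NDUFS7 by −0.28 and NDUFB4 by −0.32, each with an interval across 0, and a motif match is not a measured binding site.

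The catalytic core of the matrix arm differed by −0.28 to 0.08 between outer and inner cells, with 0 called. Of its 7 nuclear-encoded members 6 were tested, 2 higher and 4 lower in outer cells. Their median was −0.14, beside −0.15 for all tested members, and the 95% interval of each of the 6 lay within a 2-fold difference. That was true of 24 of the 34 tested members (70.6%), of 75.0% of the tested subunits of complexes II to V and of 25.0% of all tested probes. The count was made after the data were seen, and such shares differed with brightness, as given below.

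NDUFV1 binds NADH and the flavin. Its log2 intensities were 9.00, 9.55, 9.50 and 10.00 on inner replicates 1 to 4 and 9.38, 9.09, 9.08 and 9.47 on outer replicates 1 to 4. Inner replicate 1 was the lowest of all 8 arrays and inner replicate 4 the highest, so the groups overlapped, and the difference was −0.26 with an interval of −0.88 to 0.36. It was −0.43 without inner replicate 1 and −0.099 without inner replicate 4. NDUFV2, its neighbour with an iron-sulfur cluster, read 12.68, 12.85, 12.53 and 12.56 on the inner and 12.52, 12.85, 12.99 and 12.56 on the outer arrays. Both groups covered much the same range, with outer replicate 3 the highest, and the difference was 0.08 (interval −0.42 to 0.57).

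NDUFS3, a core subunit of the same arm, read 12.48, 12.29, 12.53 and 12.51 on the inner and 12.21, 12.18, 12.43 and 12.51 on the outer arrays. Outer replicate 4 matched the inner arrays and outer replicates 1 and 2 were below all of them, which gave −0.12 (interval −0.57 to 0.33), with −0.18 without outer replicate 4 and −0.072 without outer replicate 2.

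NDUFS7 carries the last iron-sulfur cluster before ubiquinone. It read 7.98, 8.22, 8.04 and 8.08 on the inner and 7.49, 8.31, 7.43 and 7.99 on the outer arrays. The inner values were close together, while outer replicates 1 and 3 were the lowest and outer replicate 2 the highest, with a difference of −0.28 (interval −0.88 to 0.33). It was −0.45 without outer replicate 2, −0.15 without outer replicate 3 and −0.071 with neqc. NDUFS8, which also holds iron-sulfur clusters, read 10.48, 10.64, 10.44 and 10.75 on the inner and 10.45, 10.69, 10.52 and 10.70 on the outer arrays. The groups lay on top of each other, at 0.01 (interval −0.44 to 0.46). The limma adjusted p of the 6 core members was 0.846 to 0.996.

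The accessory subunits of the matrix arm gave 8 tested members of 9, of which 2 were higher and 6 lower in outer cells, with a median of −0.16. NDUFA7, a small accessory subunit, read 10.19, 10.37, 10.57 and 10.35 on the inner and 10.04, 10.35, 9.55 and 9.22 on the outer arrays. Outer replicates 1, 3 and 4 were below every inner array, while outer replicate 2 lay inside the inner range. The inner mean was 10.37 ± 0.15 and the outer mean 9.79 ± 0.51 (SD, n = 4 each), a difference of −0.58 with an SE of 0.29 and an interval of −1.26 to 0.10 (limma adjusted p = 0.681). NDUFA6, which belongs to the LYR family and holds an acyl carrier protein on the matrix arm, read 9.89, 10.39, 10.97 and 11.06 on the inner and 11.67, 10.48, 10.65 and 10.28 on the outer arrays. Outer replicate 1 was the highest and inner replicate 1 the lowest, with overlap between the rest, and the difference was 0.20 (interval −0.74 to 1.13). Without outer replicate 1 it was −0.10, and without inner replicate 1 it was −0.033.

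The other 6 tested matrix arm members differed by −0.30 to 0.06. NDUFA12 was at −0.30, NDUFA2, which has a thioredoxin-like fold, at −0.20, and NDUFS4 at −0.17. NDUFS6, which binds zinc, was at −0.15, NDUFA9, which binds NADPH, at −0.09 and NDUFA5 at 0.06. Loss of NDUFS4 is known to cause Leigh syndrome in patients, and here its inner values lay between 11.62 and 11.84 and its outer values between 11.46 and 11.67. The groups of NDUFS4 thus overlapped narrowly, with an interval of −0.60 to 0.26.

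The accessory subunits of the proximal membrane arm, next to the matrix arm, differed by −0.83 to 0.66. Of 9 members 8 were tested, with 2 higher and 6 lower in outer cells and a median of −0.37, and 3 of the 8 had an interval within a 2-fold difference. NDUFA8, a subunit on the intermembrane side held together by disulfide bonds, read 10.54, 9.61, 9.80 and 9.79 on the inner and 10.68, 10.35, 10.44 and 10.91 on the outer arrays. Inner replicates 2 to 4 were below every outer array, and inner replicate 1 lay inside the outer range, so that the groups overlapped through that array alone. The means were 9.94 ± 0.42 and 10.60 ± 0.25, a difference of 0.66 (SE 0.28, interval 0.02 to 1.31), or 1.58-fold. The unadjusted p of NDUFA8 was 0.046 and the limma adjusted p 0.618.

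NDUFA3, a small membrane protein of the proximal arm, read 8.86, 10.46, 10.78 and 10.23 on the inner and 9.54, 9.45, 9.71 and 8.32 on the outer arrays. Inner replicates 2 to 4 were above every outer array, but inner replicate 1 was lower than 3 of the 4 outer arrays. The difference was −0.83 (SE 0.50, interval −1.99 to 0.33, limma adjusted p = 0.754), the lowest of any tested member, and it was −1.24 without inner replicate 1 and −0.52 without outer replicate 4. RefSeq lists 6 pseudogenes named after NDUFA3, and whether related sequences add to its signal was not tested.

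NDUFA11, a membrane subunit that lies against complex III in respiratory supercomplexes, read 7.53, 8.19, 8.42 and 8.23 on the inner and 7.70, 7.75, 7.63 and 6.50 on the outer arrays. Inner replicate 1 lay below the 3 higher outer arrays, and outer replicate 4 was far below all the others. The difference was −0.70 (SE 0.36, interval −1.53 to 0.14, limma adjusted p = 0.693). Without outer replicate 4 it was −0.40, and with neqc on all probes it was −0.18. Of the other 5 tested proximal members, NDUFA1 was at −0.47, NDUFC1 at −0.47, NDUFA13, also known as GRIM-19, at −0.26, NDUFA10, which resembles nucleoside kinases, at −0.03 and NDUFS5, a disulfide-bonded subunit, at 0.03. NDUFA1, an X-linked subunit of the membrane arm, had an interval of −1.06 to 0.11.

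**Figure D2:**
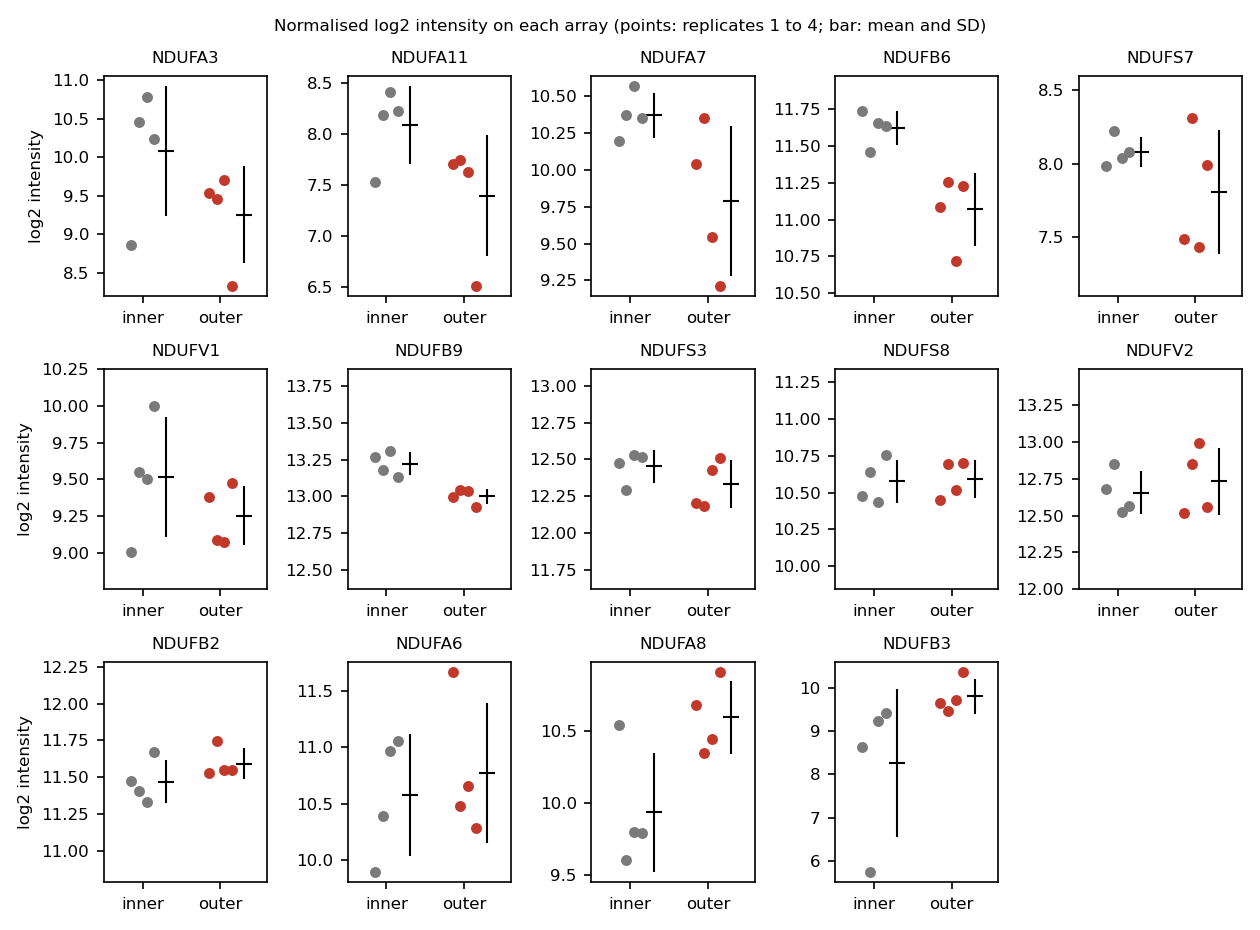
Normalised log2 intensity (vertical axis, each panel with its own range of at least 1.5 units) on the 4 inner and 4 outer arrays (horizontal axis) for the 14 subunits described array by array, ordered from the lowest to the highest difference, with points for replicates 1 to 4 and bars for mean and SD. NDUFB6, NDUFB9 and NDUFB3 are the panels in which the groups do not overlap, and inner replicate 2 of NDUFB3 stands at 5.73, far below the other 7 arrays.

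The accessory subunits of the distal membrane arm, the NDUFB series, gave 10 tested members of 11, with 2 higher and 8 lower in outer cells and a median of −0.13. They include the 3 members whose inner and outer values did not overlap, which were NDUFB3 above and NDUFB6 and NDUFB9 below. Those 3 are 8.82% of the tested members, where 5.26% of all tested probes had groups without overlap (2.57% higher and 2.69% lower).

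NDUFB3 is a small subunit with a single membrane segment, and variants in it are known to cause complex I deficiency. Its log2 intensities were 8.64, 5.73, 9.23 and 9.41 on the inner arrays and 9.64, 9.48, 9.72 and 10.38 on the outer arrays. Every outer array was above every inner array, but the gap between the lowest outer and the highest inner array was 0.06, and inner replicate 2 was far below all others. The means were 8.25 ± 1.71 and 9.80 ± 0.40, a difference of 1.55 (SE 0.80, interval −0.30 to 3.40) or 2.93-fold, the highest of the tested members, with a limma adjusted p of 0.693. Without inner replicate 2 the difference was 0.71. The deposited intensity of NDUFB3 on that array was 88.0, with a standard error of 5.08 over 47 beads, against 314.3, 654.2 and 650.2 on inner replicates 1, 3 and 4. With neqc the difference was 0.96. RefSeq lists 5 pseudogenes named after NDUFB3.

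NDUFB6, a membrane subunit of the distal arm, read 11.74, 11.46, 11.66 and 11.63 on the inner and 11.09, 11.25, 10.72 and 11.23 on the outer arrays. Each inner array was above each outer array, with a gap of 0.21 between the groups, and the difference was −0.61 to −0.43 when any 1 array was left out. The means were 11.62 ± 0.12 and 11.07 ± 0.25, a difference of −0.55 (SE 0.21, interval −1.05 to −0.06), which is 1.47-fold higher in inner cells. The unadjusted p of NDUFB6 was 0.033 and the limma adjusted p 0.574, with a range of 0.343 to 0.758 over all alternatives. RefSeq lists no pseudogene named after NDUFB6.

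NDUFB9, a LYR protein that holds an acyl carrier protein on the membrane arm, read 13.26, 13.18, 13.31 and 13.13 on the inner and 12.99, 13.04, 13.04 and 12.93 on the outer arrays. The groups were tight and lay apart by 0.09, at −0.22 (SE 0.18, interval −0.64 to 0.20, limma adjusted p = 0.822), and they overlapped with the authors' scaled values and with median scaling. NDUFB2, a small membrane subunit, read 11.47, 11.41, 11.33 and 11.67 on the inner and 11.53, 11.75, 11.55 and 11.55 on the outer arrays. Outer replicate 2 was the highest, inner replicate 4 was above the other outer arrays, and the difference was 0.12 (interval −0.32 to 0.57), with 0.070 without outer replicate 2 and 0.19 without inner replicate 4.

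The other 6 tested distal members were all lower in outer cells, by −0.32 to −0.05. NDUFB4 was at −0.32, with an interval of −2.04 to 1.40, and was the one tested member detected on fewer than 8 arrays, on 6. NDUFB7 and NDUFB10, which are disulfide-bonded like NDUFA8, were at −0.16 and −0.05. The membrane subunits NDUFB8, NDUFB5 and NDUFB11 were at −0.14, −0.11 and −0.08. RefSeq lists 12 pseudogenes named after NDUFB4. NDUFAB1, the mitochondrial acyl carrier protein, which also serves fatty acid and lipoate synthesis and sits in both arms, was at 0.10 (interval −0.74 to 0.94), with inner values of 10.17 to 11.56 and outer values of 10.44 to 11.22.

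In the authors' deposited table the scaled inner over outer ratio was 0.595 for NDUFB3, 0.581 for NDUFA8, 1.40 for NDUFB6 and 1.78 for NDUFA3. For these members that ratio is one of group medians, whereas each difference here is one of means of log2 intensity. Across these unlike measures the direction was the same for 14 of the 15 members selected for values per array. The exception was NDUFA6, at 1.11 by medians in the authors' deposited table and at a difference of 0.20 between means here. Without outer replicate 1 the NDUFA6 difference here was −0.10. For NDUFB3 the authors' deposited table gives 1.68-fold more in outer cells by medians, against 2.93-fold between the means of log2 intensity here.

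The 4 members that were not tested had little or no signal in either group. NDUFS1, the largest core subunit, NDUFB1 and NDUFC2 had a detection p below 0.01 on no array. NDUFS1 read 4.41 to 4.98, NDUFB1 4.39 to 4.87 and NDUFC2 4.49 to 5.05, below the lowest level of a detected probe, which was 5.23 to 5.58 per array. NDUFV3, an accessory subunit of the flavin module, was detected on 2 inner arrays and 1 outer array, at 4.53 to 6.27. These probes give no comparison, and a probe without signal does not show that its transcript was absent.

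The complex I probes were bright and varied little between replicate arrays. The median over tested members of the mean log2 intensity was 11.3 (range 6.07 to 13.1), against 8.52 for all tested probes, as probe signal and not as transcript number. The median SD between replicates was 0.185 in inner and 0.251 in outer cells for the members, against 0.688 and 0.668 for all tested probes. These SDs were not compared at matched brightness. In the brightest class, 12 to 15 on the log2 scale, 7 of 9 members were lower in outer cells against 48.2% of 421 probes, and all 9 had an interval within a 2-fold difference, as 94.8% of those probes had. In the class from 10 to 12 it was 11 of 16 against 50.9%, from 8 to 10 it was 3 of 5 against 49.7%, and from 4 to 8 it was 4 of 4 against 48.6%. The classes were chosen after the data were seen.

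**Figure D3:**
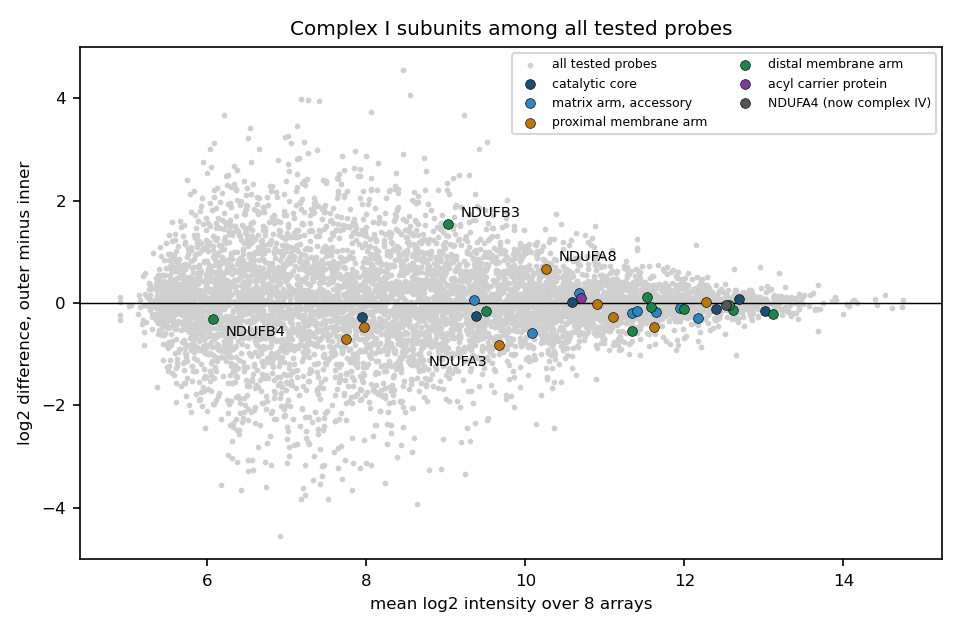
Log2 difference, outer minus inner (vertical axis), against mean log2 intensity over the 8 arrays (horizontal axis) for all 6698 tested probes (grey) and the 34 tested complex I members (coloured by role). The members lie among the brighter probes, near and mostly below 0, with NDUFB3 as the member farthest above.

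Read by array, the members deviated from their own mean over all 8 arrays by a median of −0.02, 0.13, 0.13 and 0.15 on inner replicates 1 to 4, and of −0.08, 0.01, −0.05 and −0.13 on outer replicates 1 to 4. Inner replicates 2 to 4 were thus above every outer array, while inner replicate 1 was below outer replicate 2. The number of members above their own mean was 16, 25, 21 and 31 of 34 on the inner and 11, 18, 13 and 15 on the outer arrays. The same median over all tested probes was 0.02 to 0.06 on every array. Inner replicate 1 had the lowest mean intensity of the 8 arrays and inner replicate 2 the highest, and the part of array brightness in these deviations was not tested.

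**Figure D4:**
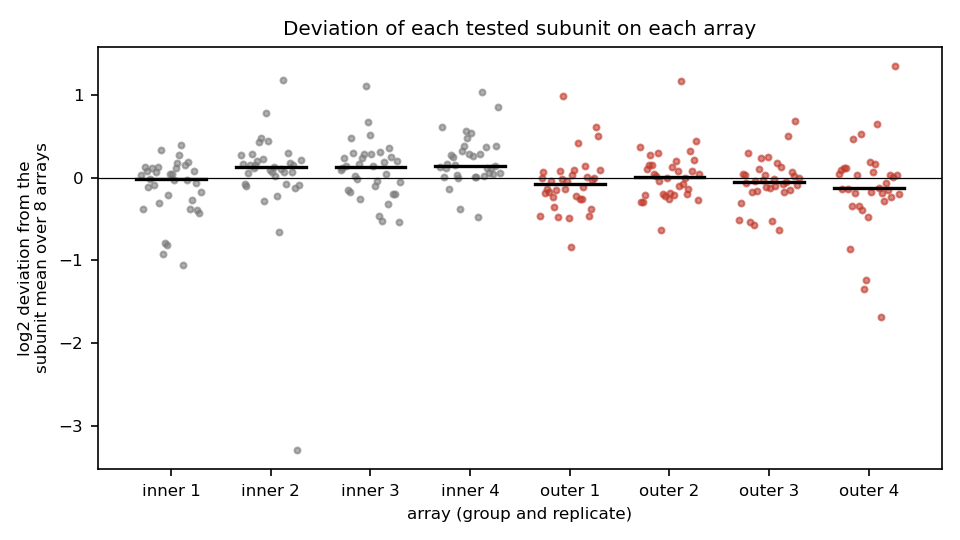
Deviation of each tested complex I member from its own mean over the 8 arrays, in log2 units (vertical axis), on each array (horizontal axis), with the median of the members. The medians of inner replicates 2 to 4 lie at 0.13 to 0.15, above the outer medians of −0.13 to 0.01.

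Other genes of the respiratory chain were read from lists of complexes II to V, of assembly factors and of regulators. Of 40 tested subunits of complexes II to V, 9 were higher and 31 lower in outer cells (77.5% lower), with a median of −0.15 and 0 called, beside 73.5% and −0.15 for complex I. An unadjusted limma p below 0.05 was reached by UQCR11 and UQCR10, small subunits of complex III, and by ATP5ME of the ATP synthase. That is 7.50% of the 40, against 8.05% of all tested probes. UQCR11 was at 2.86 (limma adjusted p = 0.565), UQCR10 at −0.88 (0.574) and ATP5ME at −0.52 (0.618). UQCR11 read 4.59, 4.41, 7.13 and 8.91 on the inner and 9.92, 7.74, 9.20 and 9.63 on the outer arrays, so the groups overlapped. Its inner replicates 1 and 2 were below the lowest level of a detected probe on those arrays, 5.47 and 5.45.

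Among the assembly factors of complex I more were higher than lower. Of 16 on the array 11 were tested, 8 higher and 3 lower in outer cells, with a range of −0.71 to 1.12, a median of 0.37 and 0 at a limma adjusted p below 0.05 or an unadjusted p below 0.05. The difference between assembly factors and subunits was not tested. Of 6 tested regulators of mitochondrial biogenesis 1 was higher and 5 lower, with a range of −2.47 to 1.85, a median of −0.50 and 0 called. The higher one, PPRC1, a coactivator related to PGC-1α, alone had an unadjusted limma p below 0.05. That is 16.7% of the 6, against 8.05% of all tested probes. PPRC1 was 6.65 ± 0.96 in inner and 8.51 ± 0.51 in outer cells, a difference of 1.85 (limma adjusted p = 0.439). Of 6 tested genes for import and folding of twin-cysteine proteins, the class to which NDUFA8 belongs, 3 were higher and 3 lower, with a median of 0.14 and 0 at an unadjusted limma p below 0.05.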

How the data were processed

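Outer and inner cells were grouped by the samples' titles, 4 arrays each. Per the column headers, the deposited intensity is an average signal of a probe, given with a bead standard error and a bead number. These headers do not state whether background was subtracted. NDUFS1, detected on no array, still read 32.0 to 47.8, and the intensities were treated as not background-subtracted. The deposited detection p-value ranks a probe among controls. The authors also deposited scaled values, a ratio of intensity to array mean, which was recomputed here within 0.3%. The deposited inner over outer ratio is the authors' own. Scanning software is not given in the sources used here.

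The complex I members and the other gene lists were chosen with earlier results of these data known. Left out was 1 probe that had no beads on some array. The mean and SD of the background were inferred from 19053 probes with a detection p on regular steps of 1 in 708 (tolerance 0.01 of a step), because the 1535 others, 1530 of them with a bead number that is not whole, raise the estimate. It was 31.1 to 38.5 (SD 6.24 to 12.4) per array, against 96.5 to 126 (SD 262 to 391) with neqc on all probes. All 38 members lie on the steps. Normexp correction with an offset of 16, quantile normalisation and log2 followed, and probes detected (p below 0.01) on 4 or more arrays were fitted with lmFit and eBayes of limma 3.58.1 in R 4.3.3, with group as the only term. The fit was also run on simulated data, with an outcome not reported here, so its power at the size of the member differences is not given. A member value rests on at least 20 beads (median 43), with a median standard error of 3.87% of intensity, and 8 arrays limit the precision.

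Values per array are given for members with an unadjusted p below 0.05, those whose groups do not overlap, the 4 with the largest difference in each direction and the tested core members. Other genes are named where their unadjusted p was below 0.05. Results for some genes that these rules select are not reported here. Alternatives were neqc, the authors' scaled values, an offset of 50, median scaling, other detection filters, eBayes with trend and robust, the replicate number as a block and leaving out each array. Symbols and coordinates come from RefSeq GRCh38.p14, with 15331 symbols current and 3575 updated. Pseudogenes were counted only where their symbol is the member's symbol followed by P, with or without a number. Those under other names were not counted.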

Additional observations from a re-analysis of the deposited data

Results flagged for a closer look

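For 2 members the gap between 1 array and the nearest other of its group, divided by the group's range, was above Dixon's 95% limit for 4 values. NDUFA11 read 6.50 on outer replicate 4, against 7.63 to 7.75 on the other outer arrays (gap over range 0.91). NDUFB2 read 11.75 on outer replicate 2, against 11.53 to 11.55 on the others (0.885). Inner replicate 2 of NDUFB3, though far below the other inner arrays in log2 units, did not pass this limit (0.789), since those arrays also spread widely. The 15 members selected for values per array make 30 groups of 4, and chance alone puts about 1 in 20 such groups past this limit.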

How the results depend on the processing

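No complex I probe was called in the reported analysis or in any of 16 alternatives, and the lowest limma adjusted p of the 15 members selected for values per array was 0.343. Members lower in outer cells numbered 23 to 27. Of 240 values of these members, 233 kept their direction and side of the threshold and 7 turned, all when an array was left out: NDUFA6 ranged from −0.10 to 0.36, NDUFS8 from −0.034 to 0.072 and NDUFV2 from −0.011 to 0.15. The members' median ranged from −0.19 (without inner replicate 1) to −0.073 (without inner replicate 2) as arrays were left out. Members with an unadjusted p below 0.05 numbered 2, but 6 with neqc, 4 without a filter, 4 with trend and robust and 0 to 3 with an array left out. Over all probes 4 were called, but 1 with neqc, 2 with an offset of 50, 2 without a filter, 0 with detection on all 8 arrays, and 1 to 5 with an array left out. With the replicate number as a block 0 probes were called, and 0 members had an unadjusted p below 0.05. Same-numbered arrays deviated together by correlations of 0.039, 0.031, 0.020 and −0.014 for replicates 1 to 4. Differently numbered arrays did so by −0.034 to 0.018, below replicates 1 to 3 but not below replicate 4. Whether same-numbered arrays share a source cannot be told from such small values, and no label names one. The cause of these changes was not tested. Precision differed with brightness: 12.1% of probes below 8 on the log2 scale, 11.4% from 8 to 10, 47.8% from 10 to 12 and 94.8% above had an interval within a 2-fold difference.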
